A study of Mus musculus with 2 samples.

Results

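The genes examined were Atrx, Daxx and 6 further genes that make, carry or mark the replacement histone H3.3: H3f3a, H3f3b, Hira, Asf1a, Asf1b and Setdb1. They were taken by name from the gene columns of 2 single-cell count tables, and each of the 8 had a column among the 38458 of each table. The tables came from mouse embryonic stem cells (mESCs) of the E14 line in which both alleles of Terc, the RNA template of telomerase, had been replaced. Both time points came from the same Terc knock-out line, DKO741, which is 1 recovered line. PD100 cells, from the labelled passage 100, had not yet begun alternative lengthening of telomeres (ALT), and PD800 cells, from passage 800, were ALT survivors. Cells were kept on embryonic fibroblast feeders for maintenance and were grown without feeders for experiments. They were captured with inDrops, a droplet method in which each captured transcript carries a unique molecular identifier (UMI). Each time point was 1 library, so that no replicate error could be given, no test was made, and library and time point cannot be told apart. All intervals are 95% intervals and cover counting error only.

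H3.3 is the histone H3 that is put into chromatin throughout the cell cycle, whereas the canonical H3 proteins are made and deposited when DNA is replicated. The chaperone DAXX, working with the chromatin remodeller ATRX, places H3.3 at telomeres, pericentric heterochromatin and certain retroelements, and the HIRA complex places it at active genes and regulatory regions. ASF1 proteins hand H3 and H4 to these and other chaperones, and SETDB1 methylates lysine 9 of H3, in part at sites where H3.3 was deposited by ATRX and DAXX. Loss of ATRX or DAXX is common in human cancers that keep their telomeres by ALT, which is why their levels are of interest in these cells.

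H3f3a and H3f3b are separate genes for the same protein, and their coding sequences are shown to mark where they differ. Where the reads fall on either transcript was not examined. The sequences are GENCODE M21 transcripts of the GRCm38 build, 5′ to 3′, from the start codon on, with the first 300 bases printed, and capitals mark the bases that differ between the 2 genes.
H3f3a: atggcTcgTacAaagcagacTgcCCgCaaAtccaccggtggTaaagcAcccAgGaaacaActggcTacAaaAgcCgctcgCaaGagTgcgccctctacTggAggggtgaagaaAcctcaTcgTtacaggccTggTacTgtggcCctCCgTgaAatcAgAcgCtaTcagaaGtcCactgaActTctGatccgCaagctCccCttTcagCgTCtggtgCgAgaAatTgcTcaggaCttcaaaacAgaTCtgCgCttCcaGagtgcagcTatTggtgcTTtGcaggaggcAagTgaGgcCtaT
H3f3b: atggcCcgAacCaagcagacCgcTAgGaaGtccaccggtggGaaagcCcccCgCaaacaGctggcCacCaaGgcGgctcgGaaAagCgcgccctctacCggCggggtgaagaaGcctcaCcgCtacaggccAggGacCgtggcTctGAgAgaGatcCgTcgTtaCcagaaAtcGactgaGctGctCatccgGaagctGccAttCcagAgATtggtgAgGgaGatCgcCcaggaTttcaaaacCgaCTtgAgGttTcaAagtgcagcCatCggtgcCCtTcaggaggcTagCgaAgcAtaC
Of 411 coding bases, 95 differed, 81 of them at the third position of a codon, and the longest identical run was 23 bases. Translation gave 136 residues from each gene with 0 differences. The transcripts of H3f3a and H3f3b shared no run of 50 bases, the length of a sequencing read. H3f3b shared at least 1% of its runs of 50 bases with 1 other gene that has a column, Gm43584, which held 72 UMIs in PD100 and 60 in PD800. Processed copies of H3f3a such as H3f3c, a histone gene copy that shares 6.73% of the runs of 50 bases of H3f3a, had no column of that name and were not analysed here. Whether their reads were counted in H3f3a is not known, so the H3f3a counts may hold them.

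The stretch before the start of a gene is shown for H3f3b and H3f3a, because these genes differ there although their protein is the same, and for Asf1b, which held as many CCAAT boxes as H3f3b. The sequences are the 250 bases before the RefSeq start (GRCm38.p6), read 5′ to 3′ on the strand of the gene, at chr11:116024505-116024754 (minus strand), chr1:180813606-180813855 (minus strand) and chr8:83955444-83955693 (plus strand). Capitals mark CCAAT and TATAAA, searched on both strands, so that ATTGG is CCAAT on the other strand. No 2 of these matches overlapped.
H3f3b: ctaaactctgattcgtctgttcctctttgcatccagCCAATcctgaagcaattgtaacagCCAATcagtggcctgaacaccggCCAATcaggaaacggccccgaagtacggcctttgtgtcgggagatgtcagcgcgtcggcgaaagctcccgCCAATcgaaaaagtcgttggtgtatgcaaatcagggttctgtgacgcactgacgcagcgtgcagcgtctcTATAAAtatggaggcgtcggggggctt
H3f3a: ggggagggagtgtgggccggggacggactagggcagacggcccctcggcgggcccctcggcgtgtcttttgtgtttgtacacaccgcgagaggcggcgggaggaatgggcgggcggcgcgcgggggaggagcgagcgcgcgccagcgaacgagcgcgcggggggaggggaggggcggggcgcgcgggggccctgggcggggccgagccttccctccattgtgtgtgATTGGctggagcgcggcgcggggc
Asf1b: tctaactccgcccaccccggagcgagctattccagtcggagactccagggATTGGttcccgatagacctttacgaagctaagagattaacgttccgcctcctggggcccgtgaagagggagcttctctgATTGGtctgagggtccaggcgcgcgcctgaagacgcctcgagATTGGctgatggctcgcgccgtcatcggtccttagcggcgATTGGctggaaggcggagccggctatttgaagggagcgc
H3f3b held CCAAT 4 times and TATAAA 1 time, the latter beginning 27 bases before the start. H3f3a held CCAAT 1 time and no TATAAA, Asf1b held CCAAT 4 times, Atrx 3 times, Daxx, Asf1a and Setdb1 1 time each, and Hira did not hold it. Of 27025 promoters of the same length, 34.5% held CCAAT, 0.918% held it 4 times or more, and 13.0% held TATAAA. H3f3a had 35 CpG dinucleotides in this stretch, more than 97.2% of promoters, and H3f3b had 19, more than 80.4%. Atrx had 6 CpG dinucleotides. These matches are letters in a window and were not read as binding sites.

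After barcodes with fewer than 1000 UMIs or over 20% mitochondrial UMIs were left out, 814 PD100 cells with 1826233 UMIs and 900 PD800 cells with 2580963 UMIs remained. The median cell held 2151 UMIs in PD100 and 2701.5 in PD800. Of the cells, 8 shared a barcode sequence between the libraries. Terc had 0 UMIs in both libraries, which, at a limit of 3 UMIs, allows a level of up to 1.64 in PD100 and 1.16 in PD800 in counts scaled to a common library total (CPM), and a difference was not detectable. All 12 markers of embryonic stem cells were present in both libraries. Their sum was 12773 CPM in PD100 and 12892 in PD800. The 17 markers of extraembryonic endoderm summed to 1176 CPM in PD100, with all 17 above 3 UMIs, and to 159 CPM in PD800, with Gata6, Srgn and Ctsh at 0. The 10 fibroblast markers summed to 18.1 and 14.3 CPM, with Col1a1 and Lum at 0 in PD100 and Dcn and Pdgfrb at 0 in PD800.

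Levels were compared as CPM over all cells of a library. A total of 6984 genes had 50 UMIs or more over both libraries and are called compared genes here. The log2 ratio of PD800 to PD100 had a median of -0.34 over them, so the ratio of each of the 8 genes is also given relative to this shift. In PD800, 9.22% of compared genes were higher by 2-fold or more and 16.9% lower by 2-fold or more. With median-of-ratios scaling, which sets the median gene to no change, these shares were 13.9% and 7.79%. Of the 8 genes examined here, 7 had 50 UMIs or more, and 0 of the 7 were at least 2-fold higher and 1 was at least 2-fold lower. Neither count stands apart from the share over all compared genes, and 0 of the 7 were past 2-fold with median-of-ratios scaling.

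By library totals Atrx, the remodeller, was at nearly the same level at both time points, and Daxx, its chaperone partner, was lower at PD800. Atrx (chromosome X, 105797615 to 105929403, minus strand, GRCm38) gave 165 UMIs in PD100 and 237 in PD800, or 90.3 CPM (77.1 to 105, exact Poisson) and 91.8 CPM (80.5 to 104). The log2 ratio, 0.02 (-0.27 to 0.32, exact conditional interval), was 0.37 when taken relative to the shift. With median-of-ratios scaling it was 0.36 (0.07 to 0.66), an interval that left out 0, so whether Atrx differed depends on the scaling. Daxx (chromosome 17, 33909414 to 33915590, plus strand) had 268 UMIs in PD100 and 200 in PD800, or 147 CPM (130 to 165) and 77.5 CPM (67.1 to 89.0). The log2 ratio of Daxx, -0.92 (-1.19 to -0.65), was -0.58 relative to the shift, and 20.2% of compared genes had a lower ratio. The intervals of the Daxx level did not overlap between the libraries, whereas those of Atrx overlapped almost entirely.

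Because it does not depend on how the libraries are scaled, the share of Atrx among the UMIs of Atrx and Daxx together was also taken. It was 38.1% of 433 UMIs in PD100 (33.5 to 42.9, exact binomial) and 54.2% of 437 UMIs in PD800 (49.4 to 59.0). The share was 16.1 percentage points higher in PD800, and the intervals did not overlap. Atrx shared runs of 50 bases with 177 other genes, each with at most 0.0445% of the Atrx runs, and Daxx with 0. The part of such shared reads in the share was not tested. The genes nearest to Atrx by their levels in the 2 libraries were Klf3, with 90.9 and 92.6 CPM, and Srsf1, with 90.3 and 92.99 CPM. The nearest to Daxx were Gtf2f1, with 146 and 76.3 CPM, and Sde2, with 148 and 78.7 CPM. Nearness was the distance between the pairs of log2 CPM values over the 2 libraries.

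The 2 genes for H3.3 differed in their ratios. H3f3b (chromosome 11, 116021912 to 116027962, minus strand) had 3129 UMIs in PD100 and 5995 in PD800, or 1713 CPM (1654 to 1774) and 2323 CPM (2264 to 2382). Its log2 ratio was 0.44 (0.38 to 0.50), a 1.36-fold higher level, and 0.78 relative to the shift, with 81.2% of compared genes below it. H3f3a (chromosome 1, 180800832 to 180813943, minus strand) had 1246 UMIs in PD100 and 1574 in PD800, or 682 CPM (645 to 721) and 610 CPM (580 to 641). Its log2 ratio was -0.16 (-0.27 to -0.05) by library totals and 0.18 (0.07 to 0.29) with median-of-ratios scaling, as it was relative to the shift, so no direction is given for H3f3a. The 2 genes together were at 2396 CPM in PD100 and 2933 CPM in PD800 (log2 ratio 0.29, 0.24 to 0.35).

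H3f3b made up a larger share of the H3.3 UMIs at PD800, which are counts of captured transcripts and are not corrected for differences in capture between genes. It was 71.5% of 4375 H3.3 UMIs in PD100 (70.2 to 72.9) and 79.2% of 7569 in PD800 (78.3 to 80.1), 7.68 percentage points higher. This share does not depend on scaling and was between the interval bounds of the main value under each alternative tried. The genes nearest to H3f3b in the pair of levels were those of the ribosomal proteins Rpl41, with 1586 and 2229 CPM, and Rpl21, with 1593 and 2558 CPM. The nearest to H3f3a were Phb2, a prohibitin, with 673 and 582 CPM, and Hn1, with 718 and 613 CPM. H3f3aos, the antisense gene at H3f3a, had 1 UMI in PD100 and 0 in PD800.

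Both ASF1 genes were lower at PD800, to nearly the same degree. Asf1a (chromosome 10, 53596757 to 53609225, plus strand) had 251 UMIs in PD100 and 185 in PD800, or 137 CPM (121 to 156) and 71.7 CPM (61.7 to 82.8), which gave -0.94 (-1.22 to -0.66) as the log2 ratio. Asf1b (chromosome 8, 83955507 to 83970197, plus strand), the paralogue linked to proliferating cells, had 200 UMIs and 140 UMIs, or 110 CPM (94.9 to 126) and 54.2 CPM (45.6 to 64.0). Its log2 ratio was -1.01 (-1.34 to -0.69), which put it just past 2-fold, and it stayed there in 3 of 9 alternatives. Relative to the shift the ratios were -0.60 for Asf1a and -0.67 for Asf1b. Asf1b made up 44.3% of ASF1 UMIs in PD100 (39.7 to 49.1) and 43.1% in PD800 (37.6 to 48.7), a difference of -1.27 percentage points with overlapping intervals.

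Hira and Setdb1 were rarely seen. Hira (chromosome 16, 18877037 to 18970309, plus strand), the chaperone that gives its complex its name, had 15 UMIs in PD100 and 9 in PD800, or 8.21 CPM (4.597 to 13.5) and 3.49 CPM (1.59 to 6.62). Its log2 ratio of -1.24 (-0.89 relative to the shift) had an interval from -2.61 to 0.05, and a difference was not detectable at this depth. Hira shared 42.0% of its runs of 50 bases with Gm28539, which had 1 UMI in each library, and reads could have been split between them. Setdb1 (chromosome 3, 95323525 to 95357202, minus strand) had 46 UMIs in PD100 and 86 in PD800, or 25.2 CPM (18.4 to 33.6) and 33.3 CPM (26.7 to 41.2). Its log2 ratio of 0.40 (-0.13 to 0.95) became 0.75 relative to the shift. By library totals a difference in Setdb1 was not detectable, whereas with median-of-ratios scaling the interval, 0.21 to 1.29, left out 0. Setdb1 shared 7.72% of its runs of 50 bases with Gm4349, which had 5 and 21 UMIs. In cells of 1000 to 2000 UMIs alone the log2 ratio of Setdb1 was 1.35, and in cells of 2000 UMIs or more it was 0.15. Both values are given without an interval.

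**Figure D1:**
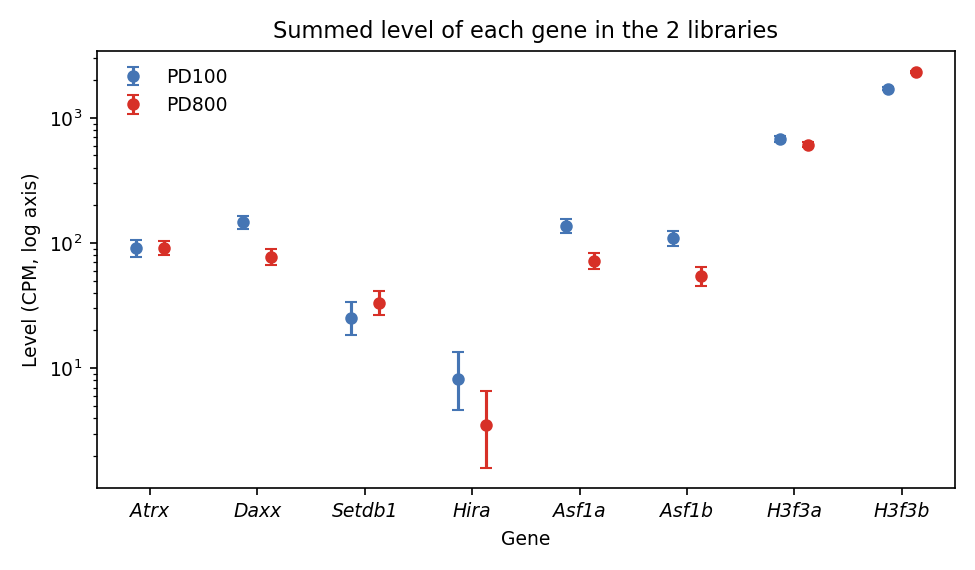
Level of each gene in the PD100 and PD800 libraries (CPM on a log axis); points are sums over all cells of 1 library and bars are 95% exact Poisson intervals. The intervals of Daxx, Asf1a, Asf1b, H3f3a and H3f3b do not overlap between the libraries, and those of Atrx, Setdb1 and Hira do. The share of all compared genes with intervals that do not overlap was not computed. H3f3a turns from lower to higher in PD800 with median-of-ratios scaling.

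**Figure D2:**
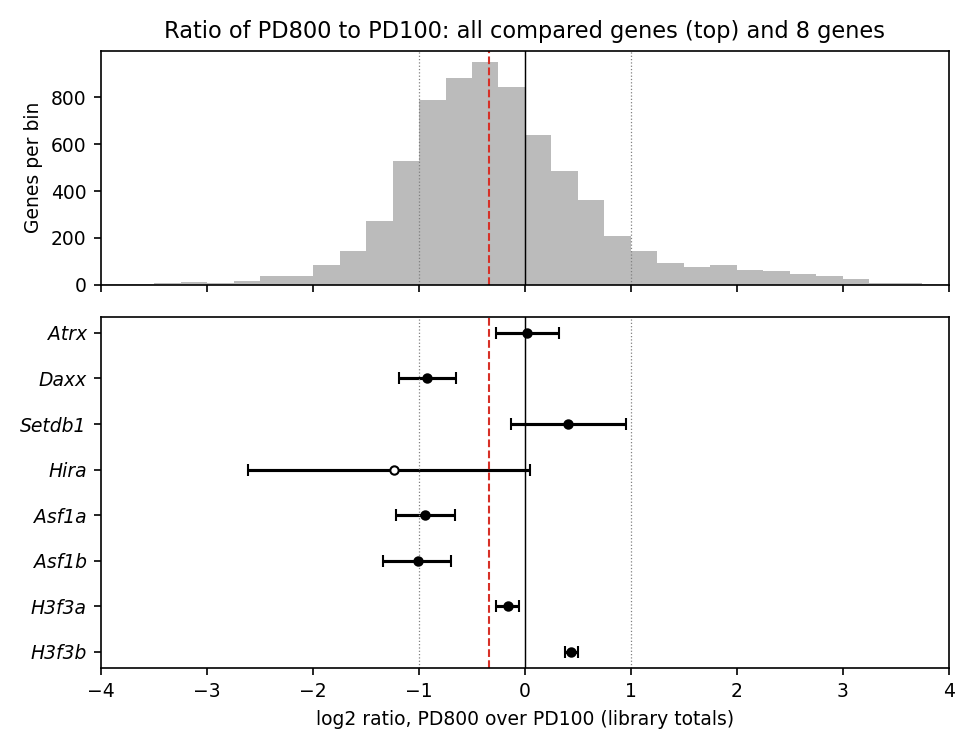
Histogram of the log2 ratio of PD800 to PD100 for the 6984 compared genes (top, number of genes per bin, 20 genes beyond the axis) and the ratio of each of the 8 genes with its 95% counting interval (bottom; open point, Hira, under 50 UMIs). The dashed line is the median of all compared genes at -0.34 and dotted lines mark 2-fold; Asf1b alone among the compared members lies just past 2-fold, and H3f3a lies above the dashed line but below 0, or above 0 with median-of-ratios scaling.

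The cells of each library were split into 4 bins of 203 to 225 cells by their mitochondrial share and again by depth. Each bin is a sum over cells, so the bins cannot show whether a difference ran through all cells. The bins by mitochondrial share were not matched between the libraries. Their median shares ran from 0.740% to 1.90% in PD100 and from 3.29% to 6.20% in PD800. H3f3b was at 1628 to 1819 CPM in the 4 PD100 bins by mitochondrial share and at 2246 to 2379 CPM in those of PD800. Daxx was at 125 to 189 CPM in the PD100 bins and at 63.5 to 96.4 CPM in the PD800 bins. Asf1a was at 117 to 160 CPM against 64.7 to 76.8 CPM, and Asf1b at 80.9 to 156 CPM against 40.6 to 65.0 CPM. For these 4 genes the bins of the libraries did not overlap, by mitochondrial share or by depth. The share of all compared genes with bins that do not overlap was not computed, so nothing is read from this count. H3f3a was at 651 to 729 CPM against 591 to 638 CPM by mitochondrial share, but its bins by depth overlapped. Setdb1 was at 10.4 to 30.5 CPM in the PD100 bins by depth and 30.9 to 34.1 CPM in those of PD800, and its bins by mitochondrial share overlapped, at 13.0 to 37.5 CPM and 21.2 to 42.3 CPM.

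Atrx overlapped in both splits, at 67.7 to 101 CPM in the PD100 bins by mitochondrial share and 78.6 to 108 CPM in those of PD800. By depth, Atrx was lowest in the shallowest bin of PD100, at 52.3 CPM from 14 UMIs, and at 83.4 to 105 CPM in the other bins. The shallowest PD800 bin held Atrx at 86.7 CPM, and the next bin was the lowest, at 67.6 CPM. In cells of 1000 to 2000 UMIs alone the log2 ratio of Atrx was 0.52, and in cells of 2000 UMIs or more it was -0.15. The median mitochondrial share of a cell was 1.23% in PD100 and 4.42% in PD800, and the part of this difference between the libraries in the ratios was not tested.

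**Figure D3:**
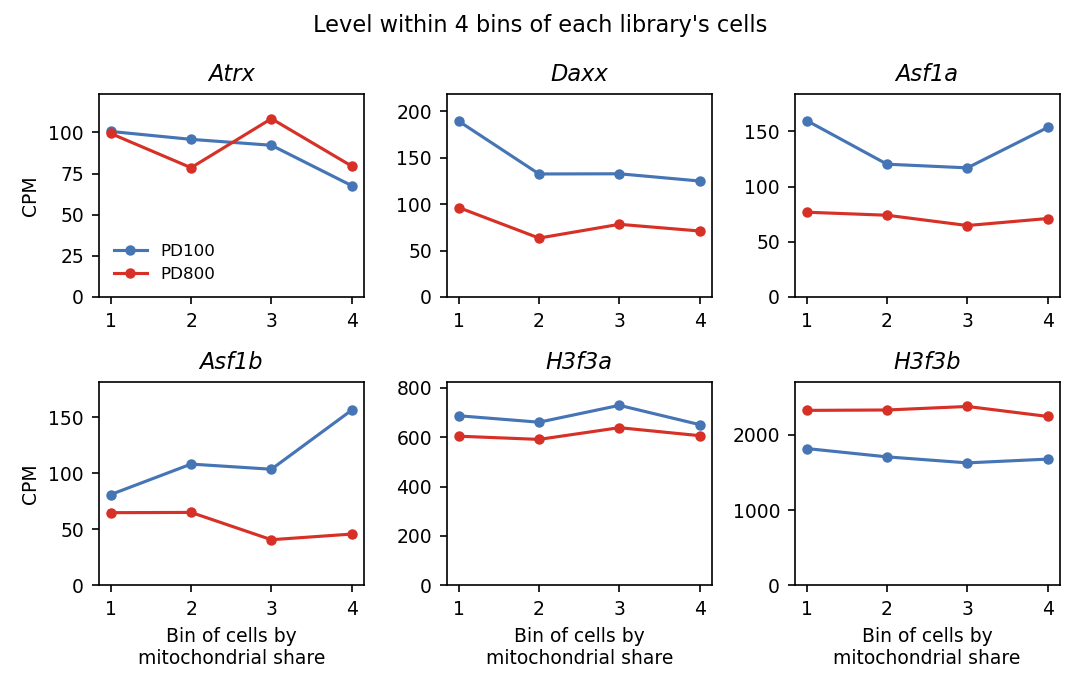
Level (CPM, axes from 0) of 6 genes in bins of the cells of each library ranked by mitochondrial share, from lowest (1) to highest (4); points are sums over 203 to 225 cells of 1 library. The PD100 and PD800 lines cross for Atrx and stay apart for Daxx, Asf1a, Asf1b, H3f3a and H3f3b. The share of all compared genes whose lines stay apart was not computed. With median-of-ratios scaling the H3f3a ratio of the whole libraries turns positive.

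Shares of cells were compared at equal depth, with 1000 UMIs drawn from each cell. H3f3b was present in 607 PD100 cells, or 74.6% of them (71.4 to 77.5, exact binomial). The PD800 library had it in 746 cells, or 82.9% (80.3 to 85.3). Without thinning these shares were 89.4% and 95.9%. H3f3a was present in 45.3% of PD100 cells (41.9 to 48.8) and 42.7% of PD800 cells (39.4 to 46.0), and in 65.5% and 70.9% without thinning. H3f3a thus changed its order between thinned and unthinned cells, and no order was read from it.

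Daxx was present in 92 PD100 cells (11.3%, 9.21 to 13.7) and 64 PD800 cells (7.11%, 5.52 to 8.99). Asf1b was present in 8.97% of PD100 cells (7.10 to 11.1) and 5.22% of PD800 cells (3.86 to 6.88), and Asf1a in 10.9% (8.87 to 13.3) and 7.22% (5.62 to 9.11). For Daxx and Asf1b the intervals did not overlap, and for Asf1a they overlapped slightly in this draw. Over all possible draws the mean share of Asf1a was 11.03% in PD100 and 6.49% in PD800. Atrx was present in 6.27% of PD100 cells (4.70 to 8.16) and 7.56% of PD800 cells (5.91 to 9.48), with overlapping intervals.

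Setdb1 was present in 1.11% of PD100 cells (0.507 to 2.09) and 3.78% of PD800 cells (2.63 to 5.24) in this draw. Its mean over all draws was 1.95% and 3.15%, so that the draw for PD100 was low, and no difference was read from it. Hira was present in 7 PD100 cells and 2 PD800 cells. All of these genes may be active in every cell captured, and a background share from free RNA was therefore not available.

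**Figure D4:**
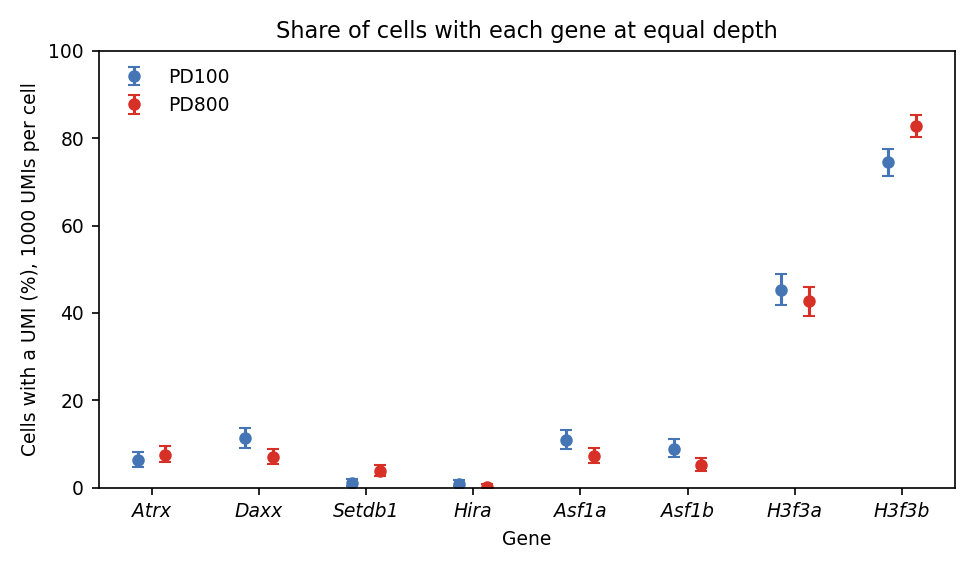
Share of cells (%) with at least 1 UMI of each gene after every cell was thinned to 1000 UMIs, for 814 PD100 and 900 PD800 cells; bars are 95% exact binomial intervals. H3f3b is present in 74.6% and 82.9% of cells, and the other genes except H3f3a in fewer than 1 in 8 cells of either library.

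Taken over the thinned cells, the H3f3b count ran from 0 to 8 UMIs in PD100, with a median of 1, and from 0 to 10 in PD800, with a median of 2. Counting both H3.3 genes, 104 PD100 cells (12.8%, 10.6 to 15.3) and 85 PD800 cells (9.44%, 7.61 to 11.5) had no UMI of either. The variance over the mean of the H3f3b count was 1.40 in PD100 and 1.53 in PD800, where the median gene with at least 0.1 UMI per cell had 1.31 and 1.20. Of these genes, 73.9% in PD100 and 97.9% in PD800 varied less than H3f3b. They were not matched to H3f3b by level, which was 1.68 and 2.25 UMIs per thinned cell. The part of this level in the rank was not tested. With another random draw the H3f3b values were 1.503 and 1.40, with 90.6% and 94.3% of genes below. The libraries were not ordered by these values.

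Within a library, H3f3a and H3f3b occurred together in cells about as often as their separate shares would give. Both were present in 32.7% of PD100 cells (29.5 to 36.0), against a product of the shares of 33.8%, and in 35.0% of PD800 cells (31.9 to 38.2), against 35.4%. Pearson's r between their thinned counts was -0.02 over 814 PD100 cells and -0.000605 over 900 PD800 cells, given as a description. Atrx and Daxx were present together in 4 PD100 cells and 5 PD800 cells.

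The levels were also set against the cell cycle, since canonical histones and Asf1b are tied to DNA replication. The cells of each library were ranked by their share of UMIs from 24 S phase genes, and again from 25 genes of G2 and mitosis, split into 2 bins of equal size, and the upper bin was compared with the lower. Of 32 such comparisons, 7 had a counting interval that left out 0. Asf1a was higher in the upper S phase bin of PD100 cells, at 165 against 110 CPM (log2 ratio 0.58, 0.21 to 0.96). In PD800 the Asf1a bins were at 72.9 CPM in the lower and 70.5 CPM in the upper bin.

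Atrx was higher in the upper S phase bin of PD800 cells, at 106 against 76.8 CPM (log2 ratio 0.47, 0.09 to 0.86). This interval took in 0 once Pola1, a DNA polymerase gene and the one of the list with the most UMIs in PD800, was left out (0.30, -0.08 to 0.68). In the upper bin by genes of G2 and mitosis, PD100 cells had more Atrx (0.49, 0.02 to 0.96), Daxx (0.43, 0.07 to 0.79) and H3f3a (0.19, 0.03 to 0.35), all on the log2 scale. In PD800 the Atrx ratio of these bins was -0.30 (-0.68 to 0.08), with an interval that took in 0. H3f3b had a log2 ratio of 0.16 (0.09 to 0.24) by genes of G2 and mitosis and -0.10 (-0.18 to -0.03) by S phase genes in PD800.

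Ranges over the bins of each library are given here for H3f3b, Daxx, Asf1a and Asf1b. The part of the cell cycle in the ratios between the libraries was not tested. H3f3b was at 1690 to 1738 CPM in the 4 bins of PD100 and at 2189 to 2449 CPM in those of PD800. Daxx was at 125 to 167 CPM and 68.9 to 85.5 CPM. Asf1a was at 110 to 165 CPM in PD100 and 64.1 to 78.8 CPM in PD800. Asf1b was at 94.6 to 124 CPM in PD100 and 49.8 to 58.8 CPM in PD800. Over the libraries as a whole the S phase list had a median log2 ratio of -0.44 and the list of G2 and mitosis -0.38, both near that of all compared genes.

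PD100 held 63 cells with 5 or more UMIs of the endoderm markers, and PD800 held 5. In these PD100 cells H3f3a was at 480 CPM (382 to 595) against 703 CPM in the 751 other PD100 cells, a log2 ratio of -0.55 (-0.89 to -0.23). H3f3b was at 1706 CPM (1517 to 1912) against 1714 CPM. Daxx was at 121 CPM (75.2 to 186) against 149 CPM, and Asf1b at 121 CPM (75.2 to 186) against 108 CPM. Without these cells in either library the log2 ratio of PD800 to PD100 was -0.96 for Daxx, 0.44 for H3f3b, -0.98 for Asf1b, -0.21 for H3f3a and 0.04 for Atrx.

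Each gene was placed beside the 20 compared genes nearest to it on its chromosome, to show whether its ratio was shared by the region. These regions differed in size, from 0.38 Mb for Daxx to 16.7 Mb for Asf1a. The neighbours of Atrx had a median log2 ratio of 0.43 (quartiles -0.36 and 1.66). Its 10 nearest had a median of 1.52 (quartiles 0.34 and 2.08). The ratio of Atrx itself was 0.02. The neighbours of Asf1a had a median of -1.40 (quartiles -1.85 and -0.70) and those of Asf1b a median of -1.12 (quartiles -1.35 and -0.54). The ratios of the genes themselves, -0.94 and -1.01, lay between these quartiles. The neighbours of Daxx had a median of -0.57 with 20 genes and -0.31 with 40. Those of H3f3a, Hira, H3f3b and Setdb1 had medians of -0.81, -0.41, -0.34 and 0.18. Of the compared genes, 6770 had a position in the annotation. Gene copy number was not measured here, and its part in these ratios was not tested.

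The other genes of the pathway were taken from lists. ATRX and DAXX partners, which include the cohesin genes, the MRE11 complex and genes of PML bodies, had a median log2 ratio of -0.87 over 13 compared genes, against -0.34 over all. Of these, 0 were at least 2-fold higher and 4 at least 2-fold lower, against 9.22% and 16.9% of all compared genes. Spop, an adaptor for ubiquitin ligases that bind DAXX, had 113 UMIs in PD100 and 45 in PD800 (log2 ratio -1.83, -2.36 to -1.32). Rassf1 had 61 and 35 UMIs (-1.30, -1.94 to -0.68). Pml, the scaffold of PML bodies, had 123 and 73 UMIs (-1.25, -1.69 to -0.82), and Smc3, a cohesin subunit, had 605 and 387 UMIs (-1.14, -1.33 to -0.96).

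Other partners had ratios above 0. H2afy, the gene of the histone variant macroH2A1, gave 151 UMIs in PD100 and 337 in PD800 (log2 ratio 0.66, 0.38 to 0.95). Ezh2, the H3K27 methyltransferase, gave 222 and 396 UMIs (log2 ratio 0.34, 0.10 to 0.58). In total, 3 of the 13 partners had a ratio above 0 and 10 a ratio below 0. With median-of-ratios scaling 4 were above 0 and 9 below, with a median of -0.52, and 1 gene was at least 2-fold higher and 1 at least 2-fold lower, against 13.9% and 7.79% of all.

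The partners of HIRA were also sparse, with 103 UMIs in PD100 and 126 in PD800 over the 3 genes. Cabin1 had a log2 ratio of -0.67 (-1.31 to -0.03), Ubn1 of -0.36 (-1.12 to 0.40) and Ubn2 of 0.45 (-0.25 to 1.17). Other H3 chaperones had a median of -0.56 over 18 compared genes, with 0 at least 2-fold higher and 1 at least 2-fold lower (9.22% and 16.9% of all compared genes). That gene was Supt6, a histone chaperone of transcribed chromatin, with 105 and 44 UMIs (-1.75, -2.30 to -1.23). The chaperones with the most UMIs were Npm1, with a log2 ratio of 0.03 (-0.02 to 0.09), Set, with -0.49 (-0.57 to -0.41), and Rbbp7, with -0.37 (-0.52 to -0.21).

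SETDB1 and HUSH partners had a median of -0.52 over 13 compared genes, with 0 at least 2-fold higher and 3 at least 2-fold lower (9.22% and 16.9% of all compared genes). The lower genes were Pphln1 (-1.46, -2.06 to -0.89), a subunit of the HUSH silencing complex, Morc2a (-1.22, -1.99 to -0.49), an ATPase that works with it, and Morc3 (-1.12, -1.56 to -0.68). Trim28, the corepressor that recruits SETDB1, had 1201 UMIs in PD100 and 1187 in PD800 (-0.52, -0.63 to -0.40). Sumo2, the gene of a SUMO protein, had 1558 and 3674 UMIs and a log2 ratio of 0.74 (0.65 to 0.83). With median-of-ratios scaling the medians were -0.22 for the H3 chaperones, with 5 of 18 above 0, and -0.17 for the SETDB1 and HUSH partners, with 6 of 13 above 0, 2 at least 2-fold higher and 1 at least 2-fold lower (13.9% and 7.79% of all).

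Heterochromatin readers and other H3K9 methyltransferases had a median of -0.29 over 11 compared genes, with 0 at least 2-fold higher and 2 at least 2-fold lower (9.22% and 16.9% of all compared genes). The 2 were the methyltransferase genes Ehmt1 (-1.33, -1.84 to -0.82) and Suv39h1 (-1.22, -1.88 to -0.58). Among the HP1 genes, Cbx5 had a log2 ratio of 0.44 (0.17 to 0.72), Cbx1 of -0.19 (-0.32 to -0.06) and Cbx3 of -0.15 (-0.33 to 0.03). With median-of-ratios scaling Cbx1 and Cbx3 turned above 0 and the list had a median of 0.05, with 6 of 11 above 0 and 0 past 2-fold.

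Other replacement histone genes had a median of 0.39 over 7 compared genes, against -0.34 over all, and of 0.73 with median-of-ratios scaling. Of the 7, 1 was at least 2-fold higher and 0 were at least 2-fold lower (9.22% and 16.9% of all compared genes), and 5 were above 0 and 2 below. H2afz, the gene of H2A.Z, gave 4559 UMIs in PD100 and 8573 in PD800 (log2 ratio 0.41, 0.36 to 0.46), close to that of H3f3b. H2afx had 727 and 1411 UMIs (0.46, 0.33 to 0.59) and H2afj 409 and 1272 UMIs (1.14, 0.98 to 1.30). The 2 below 0 were H2afv, a further H2A.Z gene, with 1027 and 1016 UMIs (-0.51, -0.64 to -0.39), and Cenpa, the gene of the centromeric H3 variant, with 818 and 820 UMIs (-0.50, -0.64 to -0.35). Cenpa was named after its values were seen.

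The replication-dependent H3 and H4 genes, whose transcripts mostly lack the poly(A) tail that this capture uses, had 50 UMIs in PD100 and 222 in PD800 over 25 genes, and none had 50 by itself. Their summed log2 ratio was 1.65 (1.20 to 2.12). The genes with the most UMIs were Hist1h4i, with 15 and 32, Hist2h3b, with 6 and 24, and Hist1h3c, with 5 and 24. Hist4h4, named after its values were seen, had 1 UMI in PD100 and 28 in PD800 (4.31, 1.71 to 9.66). These genes are near copies of one another, so that their reads could have been split among them.

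Of the S phase genes, 1 was at least 2-fold higher and 3 were at least 2-fold lower of 23 compared, where all compared genes gave 9.22% and 16.9%. Pola1 had 272 UMIs in PD100 and 3404 in PD800 (3.15, 2.97 to 3.33). Mcm5 had -1.32 (-1.52 to -1.12) and Cdc6 -1.18 (-1.59 to -0.78), and Rfc2 and Tyms, also among the 3 with the most UMIs, had 0.41 (0.25 to 0.56) and -0.22 (-0.35 to -0.08). Of the 25 genes of G2 and mitosis, Mki67 was at least 2-fold higher (1.71, 1.14 to 2.32). Kif11 (-1.01, -1.58 to -0.45) and Ckap2 (-1.01, -1.30 to -0.72) were at least 2-fold lower. The 3 with the most UMIs were Birc5 (0.44, 0.32 to 0.56), Ccnb1 (-0.38, -0.51 to -0.25) and Ube2c (0.16, 0.03 to 0.30). With median-of-ratios scaling 9 of the 23 S phase genes and 12 of the 25 genes of G2 and mitosis were above 0. By that scaling 1 gene of each list was at least 2-fold higher, and 1 S phase gene and 0 genes of G2 and mitosis were at least 2-fold lower.

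**Figure D5:**
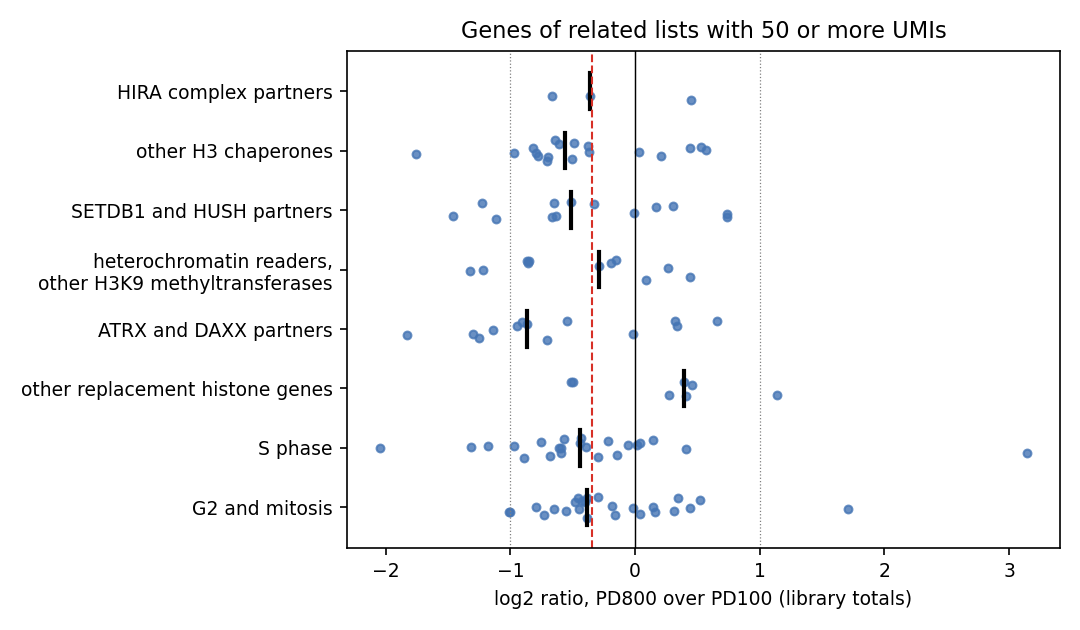
Log2 ratio of PD800 to PD100 for each compared gene of 8 related lists (points, 50 or more UMIs) with the median of each list (black bar); vertical spread within a list has no meaning. The dashed line is the median of all compared genes at -0.34 and dotted lines mark 2-fold; the ATRX and DAXX partners have the lowest list median (-0.87) and the other replacement histones the highest (0.39).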

How the data were processed

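Single-cell RNA-seq of 2 libraries, 1 per time point, was analysed. The deposited values are raw counts of UMIs for each barcode and gene. The authors made them with the inDrops pipeline by mapping to a transcriptome of GRCm38, whose annotation release is not given in the sources used here. Barcodes with under 1000 UMIs or over 20% mitochondrial UMIs were left out, at the thresholds the study states, which left more cells of each library than the study counted. Counts were summed over cells and divided by library totals, with median-of-ratios scaling as an alternative. Sums had exact Poisson, shares exact Clopper-Pearson and ratios exact conditional intervals at 95%, which do not cover amplification or library error. Cells were thinned with random seeds 1 and 2. Doublets called by Scrublet (14 and 8 cells) were kept. The genes, lists and rules were chosen with earlier results of these data known. Named were the 8 genes, the 3 genes of each list with the most UMIs, those past 2-fold, and the nearest genes by level. Matches to sequence, bins of cells and 2 further alternatives were chosen after seeing the data. On data simulated with Poisson counting error alone, the error these intervals assume, 95.9% of intervals covered the true ratio. This does not show their coverage on the real counts. Python 3.11.15, NumPy 2.4.6, SciPy 1.17.1, Scanpy 1.11.5 and matplotlib 3.10.9 were used. RefSeq promoters (GRCm38.p6) matched 8 of 8 genes by symbol. Results for some genes of the lists are not reported here.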

Additional observations from a re-analysis of the deposited data

Results flagged for a closer look

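The barcodes that the cell filter left out were not part of the comparisons, and 7 of the 8 genes had more than 3 UMIs in them in both libraries. These were 477 PD100 barcodes with 246800 UMIs and 766 PD800 barcodes with 458381 UMIs. The log2 ratio of PD800 to PD100 there was -0.82 for Daxx (-1.38 to -0.25), -0.86 for Asf1a (-1.46 to -0.27), 0.22 for H3f3b (0.05 to 0.39), -0.07 for H3f3a (-0.35 to 0.21), -0.05 for Atrx (-1.01 to 0.97) and 0.43 for Setdb1 (-1.37 to 2.56). Asf1b had 13 UMIs in PD100 and 39 in PD800 there, a log2 ratio of 0.69 (-0.24 to 1.72), which was above 0 where the kept cells gave -1.01. The interval took in 0, and the difference from the kept cells was not tested.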

How the results depend on the processing

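Daxx, Asf1a, Asf1b and Hira had a log2 ratio below 0 in each alternative that gave a value, and H3f3b and Setdb1 one above 0. With median-of-ratios scaling over genes with 50 or more UMIs the ratios were 0.36 for Atrx, 0.75 for Setdb1, -0.58 for Daxx, -0.60 for Asf1a, -0.67 for Asf1b and 0.78 for H3f3b, and H3f3a turned from -0.16 to 0.18. Over genes with a UMI in both libraries, added after seeing the data, the ratios were 0.50 for Atrx and 0.88 for Setdb1. By that scaling H3f3b was at 0.91, H3f3a at 0.31, Daxx at -0.45, Asf1a at -0.47 and Asf1b at -0.54. In cells of 1000 to 2000 UMIs, also added, Atrx was at 0.52 and Setdb1 at 1.35. The S phase list median was -0.10 with median-of-ratios scaling. Of 71 alternative ratios of the 8 genes, 57 stayed within the counting interval, as did all 26 of the pair shares. Of 64 shares of cells, 29 moved, all but 1 with thinning to 2000 UMIs or none; the other was Setdb1 in PD100 with another random seed (2.70%). Hira had no value in cells of 1000 to 2000 UMIs, where a library had 0. No paired analysis was possible because each time point had 1 library. Depth limits Hira and Setdb1 most.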
